A study of Rattus norvegicus with 20 samples.

Results

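In rat adult hippocampal neural stem cells (Fisher 344) cultured with little serum, 81 genes were low while the GSK-3 inhibitor CHIR99021 was kept on. Without stimulus, the difference of these genes between 0 and 5 d, in their mean over both genotypes, was under a set limit, though single libraries could differ more. They were chosen by their measured level L, which is log2 of CPM plus 1, where CPM is a gene's reads scaled to a library total of 1000000 reads. A member's unstimulated means at 5 d and 0 d differed by less than 1, its L was 3 or more in all 4 unstimulated libraries of 3 and 5 d, and both CHIR99021 libraries of 3 d ON and 5 d ON lay at least 1 below each of those 4. Of 32623 gene IDs counted, 5571 met the conditions on level and time and are called comparable genes. The 81 members are among them and make up 1.45% of them. Over the members the unstimulated mean L at 5 d minus that at 0 d ran from -0.98 to 0.94 (quartiles -0.37 and 0.52). The values under CHIR99021 3 and 5 d ON and in the baselines chose the members and are given as a description, with no test.

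The stimulated cells were treated with CHIR99021 (ON for 1, 3 or 5 d, or for 1 d and then OFF for 1 or 2 d, at a concentration that the labels give as 3 mM), with the ligand Wnt3a (the same 5 schedules, at 100 ng/mL), or with light (the same schedules without 5 d ON). All stimulated cells carried optoWnt, brought in by transduction and puromycin selection. The unstimulated baselines were optoWnt and wild-type cells at 0, 3 and 5 d, with 1 library of each genotype per day. Every combination of genotype, inducer and schedule is represented by 1 library, 20 in all, and whether libraries came from separate cultures is not stated. The titles of the 3 and 5 d baselines also carry the word ON, and the sources used here do not say whether those cells received light.

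In the canonical Wnt pathway, GSK-3 is part of the complex that marks β-catenin for destruction. A Wnt ligand such as Wnt3a binds Frizzled and LRP6 receptors and stalls that complex, and optoWnt does so by clustering under blue light. CHIR99021 blocks the kinase itself, which also phosphorylates many proteins outside the Wnt pathway. β-catenin that escapes destruction enters the nucleus and acts with TCF and LEF factors, mostly to switch genes on. In the adult hippocampus Wnt signals are known to promote the formation of neurons from stem cells. The deposited table gives Ensembl IDs without symbols, and 0 of the IDs matched the gene tables used here, so no role can be given for any member and markers of the cell type could not be checked.

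Library totals ran from 696463 reads (Wnt3a 1 d ON) to 5935681 reads (optoWnt baseline 3 d), so 3 reads, the most that a count of 0 allows, stood for 4.31 CPM in the shallowest library and 0.505 CPM in the deepest. Every member had at least 1 read in every library. On the first principal component of all libraries, which held 33% of the variance, 6 libraries stood apart with scores of -32.3 or lower, against 8.01 or higher in the other 14. These were Wnt3a 5 d ON, the 2 d OFF samples of Wnt3a and CHIR99021, light 3 d ON and the wild-type baselines of 0 and 5 d. Neither CHIR99021 library that chose the members was among them, but wild-type 0 d and 5 d were used by the rule. Chosen without those 2 baselines, the list would hold 142 genes, 73 of them among the 81.

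The members' middle level was close to that of comparable genes. Their mean L over the 4 baselines of 3 and 5 d ran from 3.39 to 9.52 with a median of 5.68, against a median of 5.74 over comparable genes. Under CHIR99021 the difference from that baseline mean had a median of -1.75 at 3 d ON (range -3.33 to -1.13) and -2.12 at 5 d ON (range -4.46 to -1.21). In CPM, the mean of the 2 CHIR99021 libraries was between 4.64% and 39.6% of the mean of the 4 baselines, with a median over members of 22.7%. Together the 81 genes took 0.256% of reads at 3 d and 0.21% at 5 d of CHIR99021, against 0.885% to 1.02% in the 4 baselines. In bulk libraries such as these, fewer cells of a type and less RNA per cell cannot be told apart.

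At 5 d ON the level was lower than at 3 d ON in 58 of 81 members, against 56.7% of comparable genes, with a median change of -0.39 against -0.10. It was lower by more than 1 in 19 members and higher by more than 1 in 4. No share of comparable genes was computed for changes of more than 1. Both libraries chose the members, so these counts are descriptions. The 3 members nearest to the threshold had gaps of -1.02, -1.01 and -1.01 between the higher CHIR99021 value and the lowest baseline, and the 3 genes just outside it had gaps of -0.99 each. The mirrored rule, both CHIR99021 libraries at least 1 above all 4 baselines, was met by 56 genes.

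**Figure D1:**
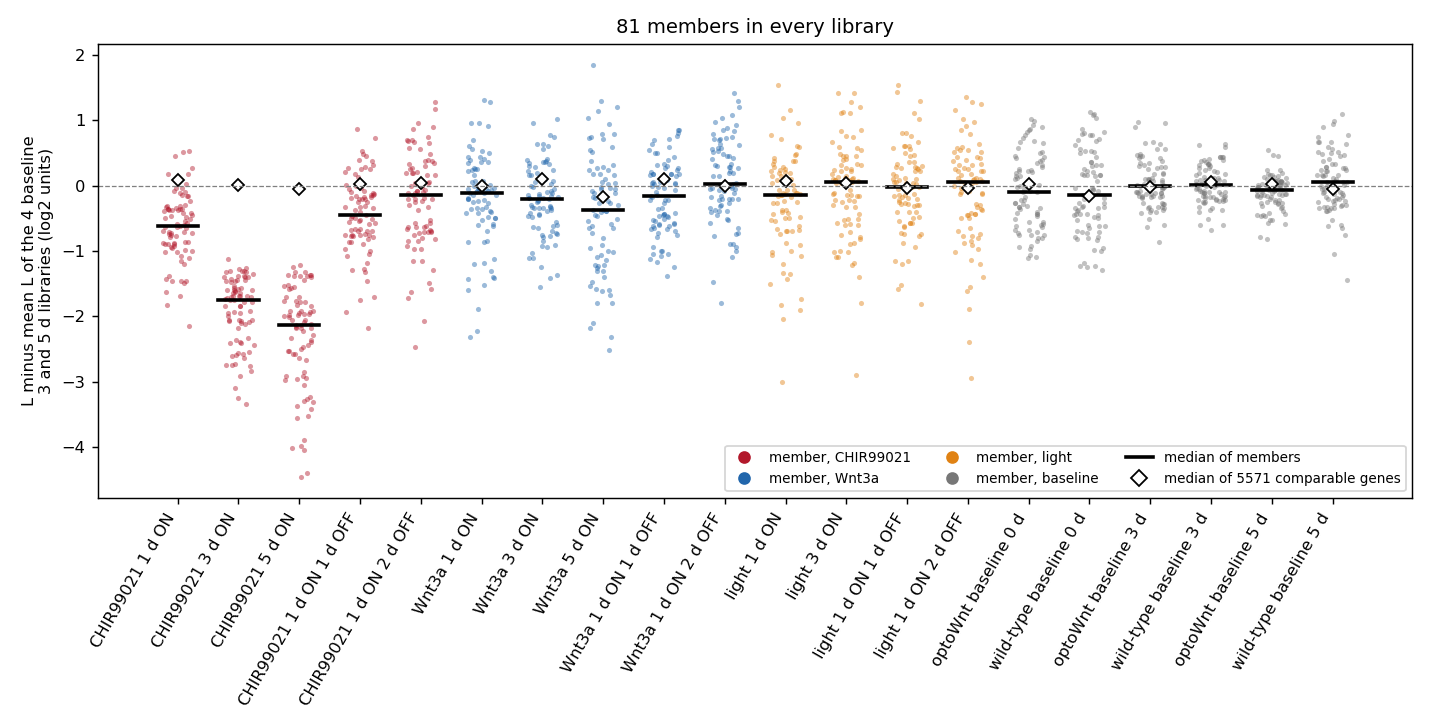
Each point is 1 of 81 members, plotted as its L minus its mean L over the 4 baseline 3 and 5 d libraries (log2 units) in each of 20 libraries. Black bars are medians of the members and diamonds medians of 5571 comparable genes. Members lie far below 0 at 3 and 5 d of CHIR99021 (medians -1.75 and -2.12), by choice, and at -0.62 after 1 d of CHIR99021, and their medians stay between -0.38 and 0.05 in every Wnt3a and light library.

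ENSRNOG00000007370 and ENSRNOG00000009503 had the largest drops under sustained CHIR99021. With CHIR99021 on, ENSRNOG00000007370 stood at 25.4 CPM (3 d) and 8.51 CPM (5 d), against 211 and 214 CPM in optoWnt baselines of 3 and 5 d and 208 and 163 CPM in wild-type ones. The mean was 16.9 ± 11.9 CPM under CHIR99021 (SD, n = 2) and 199 ± 23.9 CPM in the baselines (SD, n = 4), a difference of -3.65 in L. Both CHIR99021 values lay below every other library, the next lowest being Wnt3a 5 d ON at 61.3 CPM.

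For ENSRNOG00000009503 the CHIR99021 values were 4.98 CPM (3 d) and 1.33 CPM (5 d), against 37.9 and 28 CPM in optoWnt and 63.4 and 94.1 CPM in wild-type baselines of 3 and 5 d. Its difference in L was -3.78. It was the more variable of the pair, since its baselines had an SD of 0.76 in L against 0.18 for ENSRNOG00000007370.

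Of the 2 members with the highest baseline level, ENSRNOG00000012514 had 306 and 280 CPM with sustained CHIR99021 (3 and 5 d), against 793 and 828 CPM in optoWnt and 625 and 712 CPM in wild-type baselines. ENSRNOG00000013971 had 228 and 165 CPM under CHIR99021, against 604 and 505 CPM in optoWnt and 672 and 1095 CPM in wild-type baselines. Neither gene's CHIR99021 values overlapped its baselines of 3 and 5 d, by the rule. The differences in L from the mean of those baselines were -1.33 and -1.82. At 0 d ENSRNOG00000012514 had 410 CPM in optoWnt and 427 CPM in wild-type cells, both below its baselines of 3 and 5 d. Its CHIR99021 values were thus nearer to its 0 d level than to those baselines. ENSRNOG00000013971 had 331 CPM in optoWnt and 672 CPM in wild-type cells at 0 d. The unstimulated mean L at 5 d minus that at 0 d was 0.87 and 0.66 for these genes.

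The 1 d ON library of CHIR99021 was not used by the rule and already placed most members low. Their median difference from the baseline mean was -0.62 (quartiles -0.93 and -0.35), against 0.09 over comparable genes, and 74 of 81 lay below the mean. Of the members, 59 were below all 4 baselines, as were 12.4% of comparable genes, and 7 were lower than all 4 by at least 1, as were 0.251%. The 4 baselines also chose the members and serve every library below, so these counts are descriptions. No unstimulated library of 1 d was analysed here. At 0 d, 29 of 81 members in optoWnt and 35 in wild-type cells were below all 4 later baselines, against 19.0% and 33.2% of comparable genes. At least 1 below all 4 were 0 members in optoWnt and 1 in wild-type cells of 0 d, as were 0.162% and 2.37% of comparable genes. All 81 members were lower at 3 d ON and at 5 d ON than at 1 d ON of CHIR99021, as were 42.7% of comparable genes, but the choice of members by their 3 and 5 d values largely fixes this.

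After removal of CHIR99021 the members' median lay closer to the baselines than at 1 d ON. At 1 d after withdrawal the median difference was -0.44, and 45 members were below all 4 baselines, as were 18.6% of comparable genes. At 2 d after withdrawal the median was -0.14, and 33 members were below all 4 (19.3% of comparable genes). At least 1 below all 4 were 4 members after 1 d OFF and 7 after 2 d OFF, as were 0.287% and 0.969% of comparable genes. The 2 d OFF library is among the 6 that stand apart on the first component, and the part of that in its values was not tested.

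Set against 1 d ON of CHIR99021, 54 members were higher after 1 d OFF and 56 after 2 d OFF, as were 42.9% and 47.8% of comparable genes. In 26 members the level was higher at each of the 2 steps, as it was in 16.1% of comparable genes. ENSRNOG00000013971 had 340 CPM at 1 d ON, 372 CPM after 1 d OFF and 682 CPM after 2 d OFF. ENSRNOG00000009503 had 25.4, 14.3 and 11.2 CPM at the same 3 points and so ended lower than it was at 1 d ON.

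**Figure D2:**
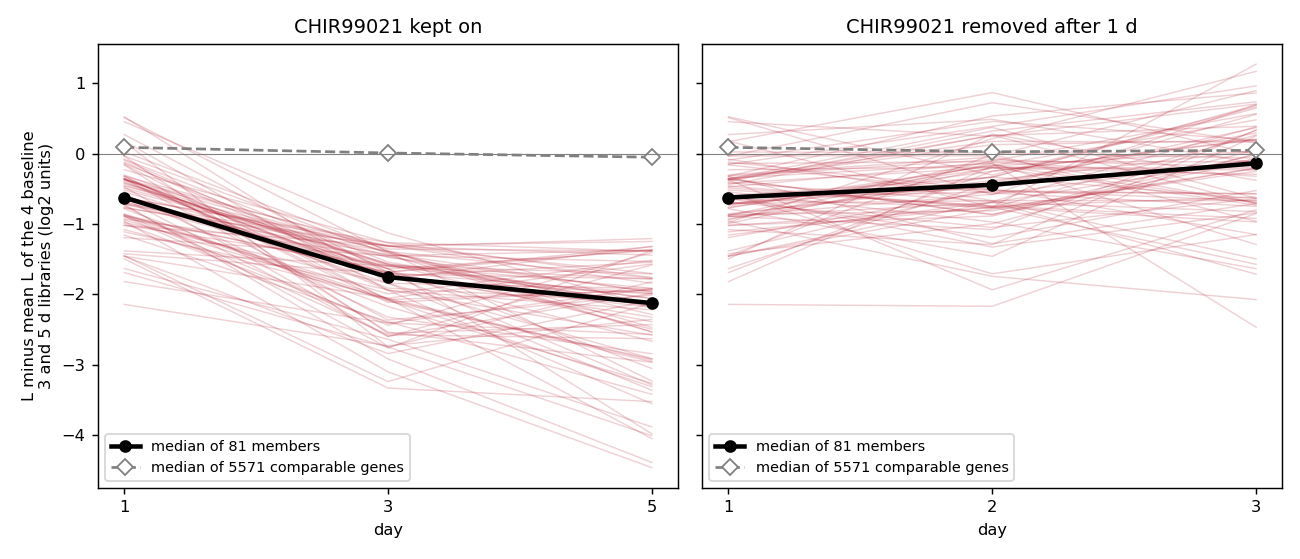
Thin lines are the 81 members under CHIR99021, as L minus the mean of the 4 baseline 3 and 5 d libraries (log2 units) against the day, with the drug kept on (left) or removed after 1 d (right). The median (black) runs over -0.62, -1.75 and -2.12 with the drug on and over -0.62, -0.44 and -0.14 after removal, the last from a library that stands apart on the first component, while comparable genes (grey) stay between -0.05 and 0.09.

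At 3 d of Wnt3a or light few members were lower than the baselines by the margin of 1. At 3 d ON the median difference was -0.21 under Wnt3a and 0.05 under light, against 0.10 and 0.03 over comparable genes. At least 1 below all 4 baselines were 2 members under Wnt3a and 2 under light, as were 0.269% and 1.99% of comparable genes. Below all 4 by any amount were 32 under Wnt3a and 24 under light, as were 17.2% and 22.1%. At 5 d of Wnt3a the median was -0.38 and 14 members met that margin, but so did 9.57% of all comparable genes, whose median was -0.18, and 38 members were below all 4, as were 39.2%. That library is among the 6 that stand apart. A 5 d light schedule was not analysed here.

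In all 3 sustained Wnt3a and light libraries, 5 members were below all 4 baselines and 4 were above all 4, as were 1.63% and 2.94% of comparable genes. ENSRNOG00000012495, 1 of the 2 members whose mean L in these libraries lay furthest below their own baseline mean (by -1.43), had 37.4 and 13 CPM at 3 and 5 d of Wnt3a and 23.1 CPM at 3 d of light. Its baselines had 78.2 and 66.3 CPM in optoWnt and 67.3 and 43.2 CPM in wild-type cells. ENSRNOG00000005158, the other (-1.53), had 14.9 CPM at 3 d of Wnt3a, against 8.32 to 12.1 CPM in the baselines. At 5 d of Wnt3a it had 1.11 CPM, which is 3 reads, and at 3 d of light 0.413 CPM, which is 1 read. In those 2 libraries 3 reads, the most that a count of 0 allows, stood for 1.11 and 1.24 CPM. The mean of -1.53 rests on these 2 values. Outside CHIR99021 3 and 5 d ON the gene's 4 lowest values, 0.413 to 2.01 CPM (1 to 7 reads), were in the 4 stimulated libraries that stand apart on the first component. The next was 3.73 CPM after 1 d OFF of light.

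ENSRNOG00000018992 and ENSRNOG00000057867 were the 2 members whose mean L in these libraries lay furthest above their own baseline mean (by 1.34 and 0.91). ENSRNOG00000018992 had 27.2 CPM (3 d) and 6.92 CPM (5 d) with CHIR99021 on. With Wnt3a on it had 144 CPM (3 d) and 266 CPM (5 d), and light at 3 d gave 170 CPM. Its baselines had 57.8 and 58.3 CPM in optoWnt and 92.0 and 92.6 CPM in wild-type cells. ENSRNOG00000057867 had 18.6 and 17.6 CPM with CHIR99021 on at 3 and 5 d. Wnt3a at 3 and 5 d gave 92.2 and 160 CPM, and light at 3 d gave 150 CPM. Its baselines had 89.8 and 77.4 CPM in optoWnt and 80.1 and 40.7 CPM in wild-type cells.

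**Figure D3:**
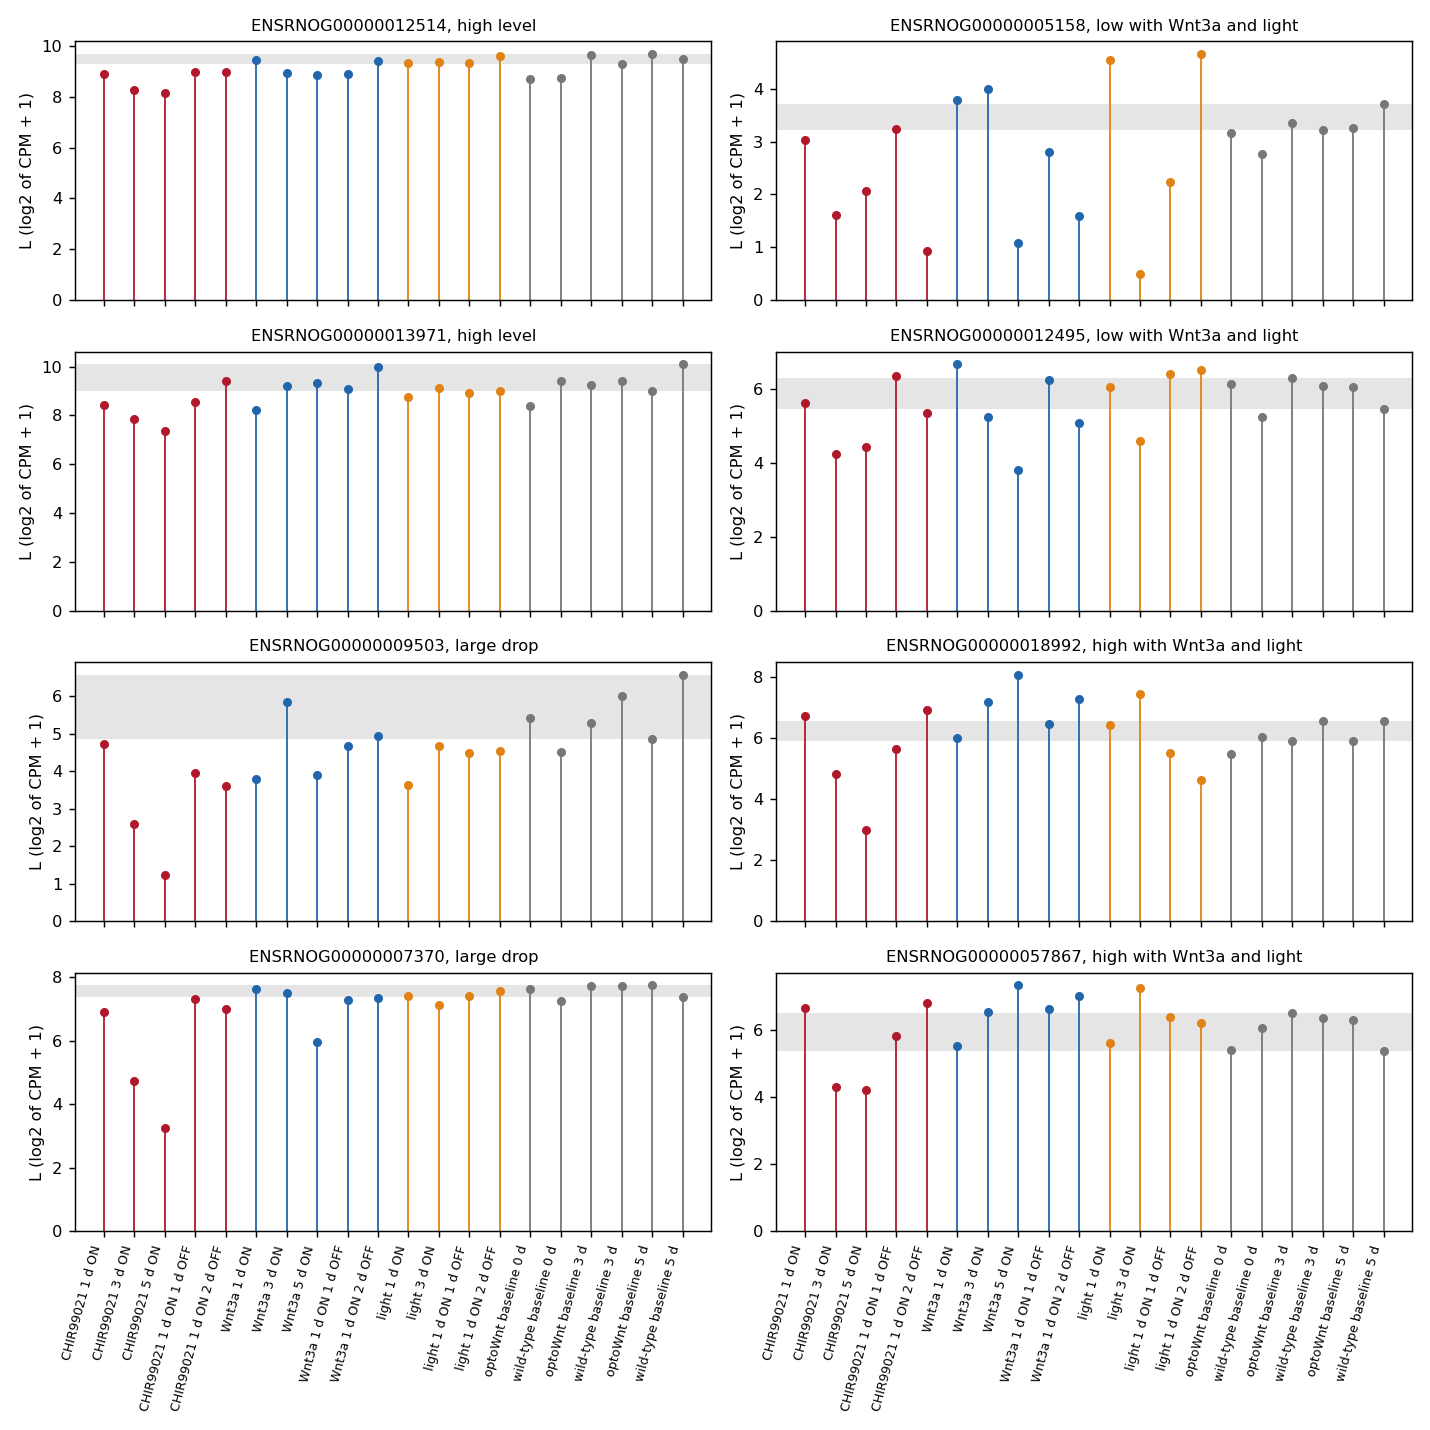
L (log2 of CPM + 1) of 8 members in 20 libraries, coloured by inducer as CHIR99021 (red), Wnt3a (blue), light (orange) and baseline (grey), with the grey band spanning the 4 baseline 3 and 5 d values. CHIR99021 at 3 and 5 d ON lies below the band in all 8, by choice. The other libraries lie in or below the band for ENSRNOG00000012514, ENSRNOG00000013971, ENSRNOG00000009503 and ENSRNOG00000007370, and some lie above it for the other 4.

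After 1 d of Wnt3a or light the members' medians were -0.12 and -0.14, with 31 and 32 members below all 4 baselines (24.2% and 18.2% of comparable genes). At least 1 below all 4 were 5 members under Wnt3a and 9 under light, as were 0.898% and 0.61% of comparable genes. Wnt3a 1 d ON is the shallowest library. Withdrawal of Wnt3a gave medians of -0.16 after 1 d and 0.02 after 2 d, and withdrawal of light -0.02 and 0.05. At 1 d OFF the margin was met by 1 member (Wnt3a) and 2 members (light), as by 0.269% and 0.359% of comparable genes. At 2 d OFF it was met by 2 and 6 members, as by 0.933% and 1.9%. Below all 4 by any amount were 28 (Wnt3a) and 26 (light) at 1 d OFF, as were 13.6% and 24.6%, and 19 and 24 at 2 d OFF, as were 23.5% and 27.1%. Over all 12 libraries that the rule did not use, 43 members never met the margin and 38 did so at least once, as did 14.8% of comparable genes.

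**Figure D4:**
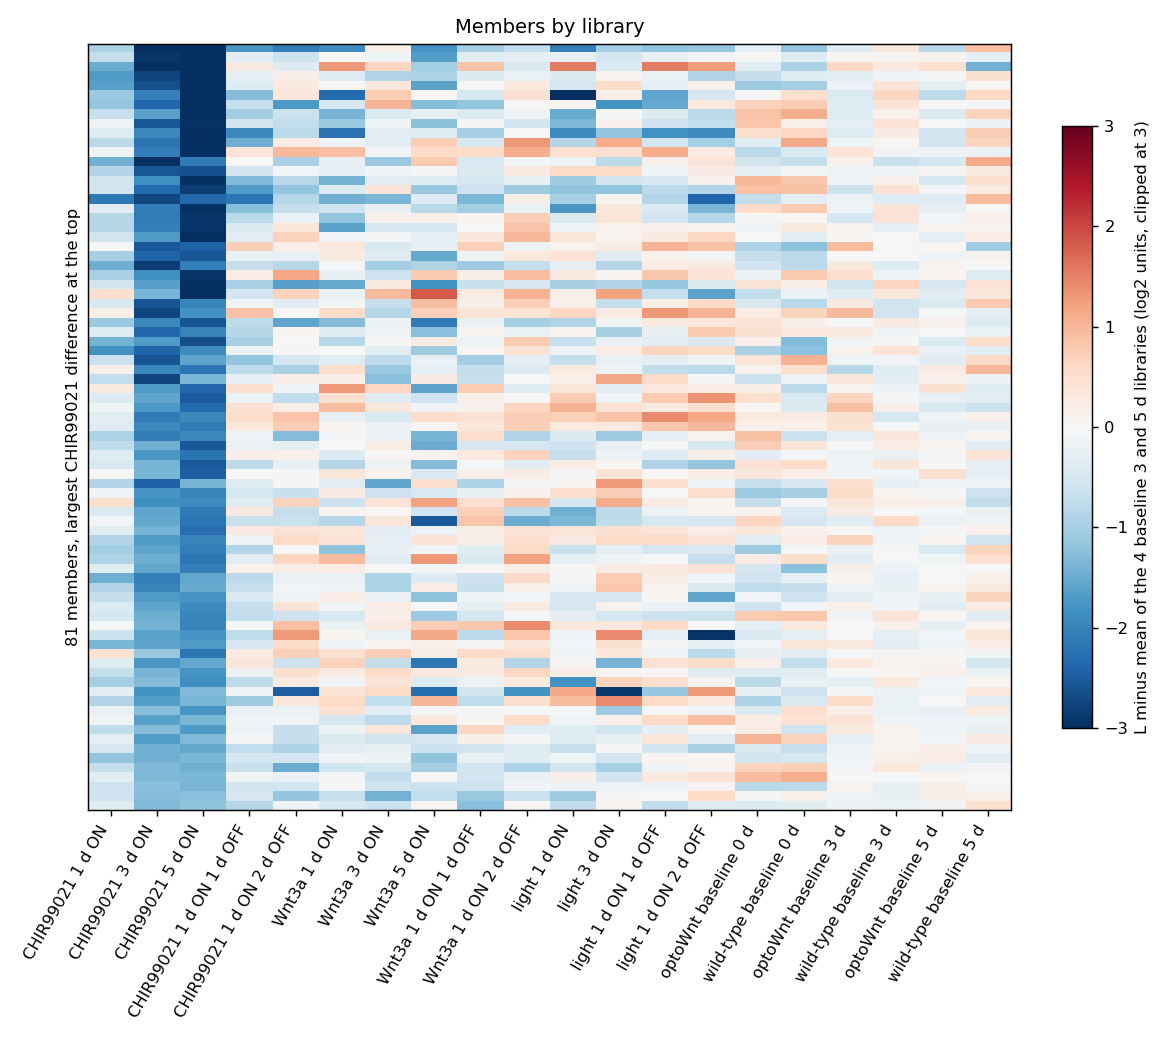
Colour gives L minus the mean of the 4 baseline 3 and 5 d libraries (blue lower, red higher, clipped at 3 log2 units) for 81 members (rows, ordered by the CHIR99021 difference) in 20 libraries. The 2 columns of CHIR99021 at 3 and 5 d ON are blue throughout by choice, the 1 d ON column is pale blue in most rows, and the Wnt3a and light columns hold both colours.

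CHIR99021 was tested against the other inducers on the 12 stimulated libraries that the rule did not use, 9 of them matched over 1 d ON, 1 d OFF and 2 d OFF. edgeR's quasi-likelihood test was run on all 12676 genes with enough reads, which included all 81 members, and a gene was called at an adjusted p under 0.05. For CHIR99021 minus Wnt3a the fitted log2 fold change was below 0 in 69 of 81 members, as it was in 48.1% of comparable genes, with a median of -0.34 against 0.01. For CHIR99021 minus light it was below 0 in 64 members (47.8% of comparable genes), with a median of -0.38 against 0.03. Both comparisons use the same CHIR99021 libraries.

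By edgeR as fitted here no member was called in either comparison. For CHIR99021 minus Wnt3a, edgeR called 0 members (0% of all genes in either direction; DESeq2 0 members), with 3 members lower and 0 higher at an unadjusted p under 0.05, as were 0.647% and 0.86% of all genes. For CHIR99021 minus light, edgeR called 0 members (0% of all genes lower and 0.0394% higher), with 15 members lower and 2 higher at an unadjusted p under 0.05, as were 4.05% and 4.99% of all genes. The smallest adjusted p of a member was 0.23 by edgeR, in the light comparison. In that comparison DESeq2 called 1 member lower and 0 higher, beside 69 lower and 107 higher of 11938 genes (1.47% in all). With the first component as a covariate edgeR called 4 members lower and 0 higher, beside 158 lower and 222 higher of 12676 genes (3.0% in all).

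At each matched schedule the members' median was lower under CHIR99021 than under the other inducer. The median over members of CHIR99021 minus Wnt3a was -0.52 at 1 d ON, -0.24 after 1 d OFF and -0.28 after 2 d OFF, against 0.10, -0.08 and 0.05 over comparable genes. The members below 0 numbered 57, 57 and 59, as were 42.4%, 59.3% and 45.6% of comparable genes. Against light the medians were -0.44, -0.42 and -0.12, against 0.01, 0.04 and 0.10 over comparable genes. The members below 0 numbered 57, 67 and 44, as were 49.3%, 46.7% and 45.4% of comparable genes, so at 2 d OFF the last count is near the background for this pair. At that point the CHIR99021 and Wnt3a libraries, but not the light library, are among the 6 that stand apart. In all 3 pairs CHIR99021 was below Wnt3a for 28 members and above it for 0, as for 8.42% and 9.84% of comparable genes, and below light for 26 and above it for 3, as for 16% and 21.6%.

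**Figure D5:**
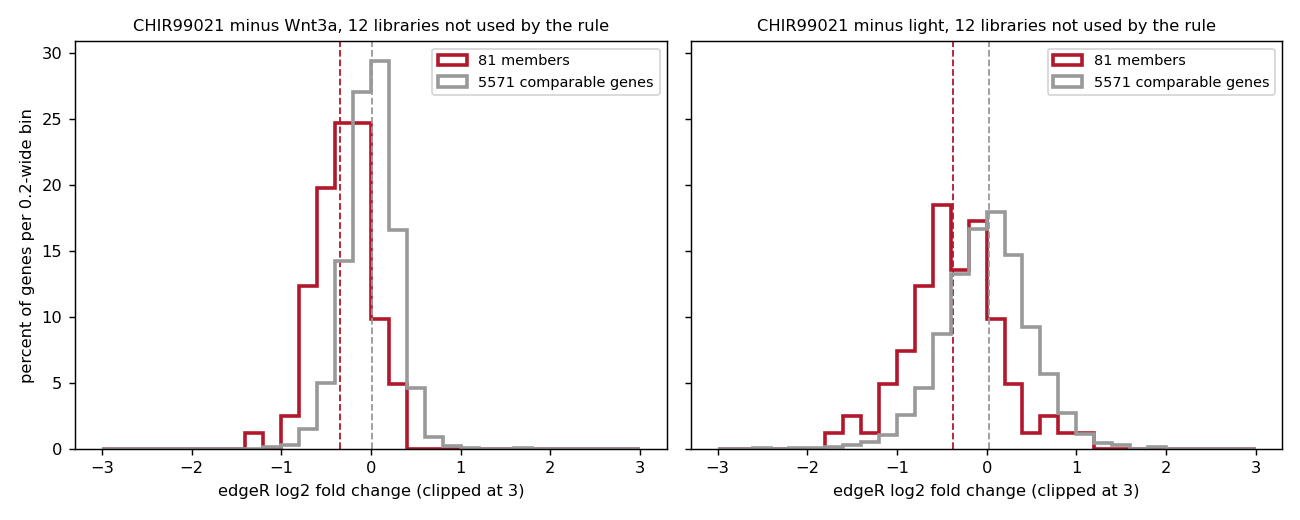
Distribution of edgeR log2 fold changes of CHIR99021 minus Wnt3a (left) and minus light (right) over 12 libraries, for 81 members (red) and 5571 comparable genes (grey), as percent of genes per bin, with dashed lines at the medians. The medians of the members are -0.34 and -0.38, and those of comparable genes 0.01 and 0.03.

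Withdrawal was tested in the same fit, as a mean over inducers. For 2 d OFF minus 1 d ON the median log2 fold change of the members was 0.33, against 0.01 over comparable genes, and it was below 0 in 17 of 81 members (49.5% of comparable genes). edgeR called 0 members (0.0552% of all genes higher and 0% lower), with 14 members higher and 1 lower at an unadjusted p under 0.05, as were 7.24% and 5.77% of all genes. DESeq2 called 3 members (3.7%), all higher, and 3.25% of 10218 genes, 204 higher and 128 lower. Without light 1 d ON 2 d OFF edgeR called 17 members (21.0%), 16 higher and 1 lower, beside 17.2% of 12420 genes. Of those genes 899 were called higher and 1241 lower. Without any other single library edgeR called 0 members. Over both directions together the shares of members were near those of all genes. Called members were mostly higher, while the genes called without light 1 d ON 2 d OFF were more often lower. For ENSRNOG00000013971, 2 d OFF was higher by 1.05 on the log2 scale (SE 0.31), which missed the threshold (edgeR adjusted p = 0.22). Without the 4 libraries that stand apart, which leaves light alone at 2 d OFF, 33 members were below 0 and the median was 0.24. Without light 1 d ON 29 were below 0, and without CHIR99021 1 d ON the median was 0.20, against 0.04 over comparable genes.

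For 1 d OFF minus 1 d ON the median of the members was 0.20, against 0.02, with 23 below 0 (46.8% of comparable genes). This median rested on single libraries: it was 0.07 without CHIR99021 1 d ON, against 0.05 over comparable genes, with 31 members below 0, and 0.11 without light 1 d OFF, against 0.04. edgeR called 0 members (0% of all genes in either direction; DESeq2 0), with 4 higher and 1 lower at an unadjusted p under 0.05, as were 1.36% and 0.694% of all genes. For 2 d OFF minus 3 d ON, where the ON side was Wnt3a and light alone, the median was 0.18, against -0.03, with 27 below 0 (52.5% of comparable genes). The median was 0.41 without light 3 d ON and 0.32 without light 2 d OFF. edgeR called 0 members (0% of all genes in either direction; DESeq2 0), with 8 higher and 0 lower at an unadjusted p under 0.05, as were 2.65% and 2.93% of all genes. In these comparisons day and withdrawal change together except in the last, where both sides are at day 3.

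Across libraries the members varied together less once the 2 that chose them were set aside. The median Pearson's r of L over the 3240 pairs of members was 0.59 with all libraries and 0.11 over the 18 without CHIR99021 3 and 5 d ON, as a description over libraries that share their baselines. The rule requires every member to be low in those 2 libraries, which largely fixes the higher r with them. No r over comparable genes was computed. The 64 members whose 2 sustained CHIR99021 values were below all 18 other libraries include ENSRNOG00000007370. In the other 17 at least 1 library outside the pair was as low or lower than the higher CHIR99021 value. The choice of members already placed both CHIR99021 values below the baselines of 3 and 5 d. No share of comparable genes was computed for these counts.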

How the data were processed

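Messenger RNA 3' ends were sequenced with Lexogen's QuantSeq chemistry (low-input form), per the labels' protocols. The authors deposited whole-number counts of reads per gene and well for 32623 Ensembl IDs, without normalization. The submitters' processing notes name Bowtie2, Subread, featureCounts and the build Rnor_6.0; the sources used here give no versions, strand setting or treatment of multi-mapped reads, so reads of near-identical or overlapping genes may be counted for the wrong gene. Wells were tied to libraries through the labels, and 0 wells lacked a library. No correction for transcript length was applied, since each transcript is read at its 3' end.

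L is log2 of CPM (reads scaled to a well total of 1000000) plus a pseudocount of 1. The members and lists were chosen with earlier results of these data known. Tests used edgeR 4.0.16 (R 4.3.3, limma 3.58.1) on the 12 libraries the rule does not use. Settings were quasi-likelihood, TMM, filterByExpr by schedule and Benjamini-Hochberg over 12676 genes. Schedule and inducer were additive terms (7 coefficients, 5 residual degrees of freedom). The tests were also run on simulated counts, drawn with less spread between libraries than was estimated here. That check therefore does not give the power of these tests. p-values measure the spread left between libraries after the additive terms for schedule and inducer. That spread includes any effect of an inducer that differs by schedule. Wnt3a 5 d ON was the only library of its schedule, so it adds nothing to that spread. Standard errors are the absolute log2 fold change over the root of its F statistic. DESeq2 1.42.0, RLE scaling, no low-count filter, the first principal component as covariate, the matched libraries alone and leaving out each library were alternatives. Floors cover counting error only. With no symbols, the gene lists and promoter motifs were not used, and at most 2 IDs were named per part of the rule: highest baseline level, largest CHIR99021 drop, and lowest and highest under sustained Wnt3a and light.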

Additional observations from a re-analysis of the deposited data

Results flagged for a closer look

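Of the 81 members, 2 that the text names lay on opposite sides of the baselines under different sustained inducers. Both CHIR99021 libraries of 3 and 5 d ON lay below all 4 baselines of 3 and 5 d. All 3 sustained Wnt3a and light libraries lay above them. The mean of those 3 libraries was above the baseline mean by 1.34 in L for ENSRNOG00000018992 and by 0.91 for ENSRNOG00000057867. The CHIR99021 side is fixed by the choice of members, both IDs were picked for the largest differences above their baselines under sustained Wnt3a and light, and the difference between inducers was not tested. Of the 81 members 4 had all 3 libraries above the baselines, as did 2.94% of comparable genes. The CHIR99021 libraries of 1 d ON and 2 d OFF also lay above all 4 baselines for both genes. ENSRNOG00000018992 had 105 CPM at 1 d ON, 48.6 CPM after 1 d OFF and 119 CPM after 2 d OFF of CHIR99021. ENSRNOG00000057867 had 99.7, 55.7 and 110 CPM at the same points. The contrast between inducers is therefore limited to 3 and 5 d ON. In the libraries the rule did not use, the log2 fold change of CHIR99021 minus Wnt3a was -0.07 for ENSRNOG00000018992 (SE 0.46, edgeR adjusted p = 1.0) and 0.19 for ENSRNOG00000057867 (SE 0.38, edgeR adjusted p = 1.0). For CHIR99021 minus light it was 0.61 for ENSRNOG00000018992 (SE 0.48, edgeR adjusted p = 0.75) and 0.26 for ENSRNOG00000057867 (SE 0.39, edgeR adjusted p = 0.88), both above 0, where 3 d ON had CHIR99021 below light, and neither passed the threshold. Of the 3 sustained Wnt3a and light libraries, Wnt3a 5 d ON and light 3 d ON are among the 6 that stand apart on the first principal component. CHIR99021 2 d OFF is too, and the part of that in the result was not tested.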

How the results depend on the processing

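The sign of the members' medians depended little on the processing: over the medians of 12 libraries and 5 comparisons, 170 of 172 alternatives kept the sign, and no library's median difference from the baselines moved by more than 0.16. The comparisons' medians moved more when 1 library was left out: 0.07 to 0.25 for 1 d OFF minus 1 d ON, 0.20 to 0.43 for 2 d OFF minus 1 d ON, 0.14 to 0.41 for 2 d OFF minus 3 d ON, -0.34 to -0.23 for CHIR99021 minus Wnt3a and -0.47 to -0.34 for CHIR99021 minus light. For 2 d OFF minus 3 d ON the median was also 0.29 on day 3 Wnt3a and light alone and 0.28 without the 4 libraries of the fit that stand apart. No paired analysis was possible because the labels give no replicate numbers to use as a block; libraries were matched by schedule, which is a term of the fit. The number of members depended on the margin, with 23 at a margin of 1.5 and 249 at 0.5, and was 142 without the wild-type 0 and 5 d baselines (chosen after seeing the data). Leaving out 1 library of the rule gave 86 to 179, with 133 without wild-type 5 d, 179 without CHIR99021 3 d ON and 154 without CHIR99021 5 d ON, and fewer conditions then had to be met.

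The counts in this paragraph show only how the members' counts moved with the setting, since no share of comparable genes was computed at these settings. With a margin of 0.5, the members lowered were 26 (CHIR99021 1 d ON), 19 (CHIR99021 1 d OFF), 14, 10 and 27 (Wnt3a 1, 3 and 5 d ON), 10 and 6 (Wnt3a 1 and 2 d OFF), 16 and 11 (light 1 and 3 d ON) and 7 and 10 (light 1 and 2 d OFF). A pseudocount of 2 gave 1 at light 1 d OFF, 2 at CHIR99021 1 d OFF and 0 at Wnt3a 1 d OFF, where TMM-scaled totals and a pseudocount of 0.5 gave 2. Leaving out 1 baseline gave 7 to 10, 4 to 8 and 7 to 8 members for CHIR99021 1 d ON, 1 d OFF and 2 d OFF. For Wnt3a 1, 3 and 5 d ON it gave 5 to 8, 2 to 4 and 14 to 17, for Wnt3a 1 and 2 d OFF 1 to 3 and 2 to 3, for light 1 and 3 d ON 9 to 10 and 2 to 3, and for light 1 and 2 d OFF 2 to 3 and 6 to 7.

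Members called for 2 d OFF minus 1 d ON were 2 with no low-count filter, 3 by DESeq2, 1 with the component as covariate and 0 to 17 when 1 library was left out. For CHIR99021 minus light they were 1, 1 and 4 in the same order, 1 without the 4 libraries of the fit that stand apart (chosen after seeing the data) and 0 to 2 when 1 library was left out. The other 3 comparisons called 0 members throughout. Over all genes, with no low-count filter, by DESeq2, with the component as covariate and without those 4 libraries, the calls were 424, 332, 61 and 13 for 2 d OFF minus 1 d ON, against 7 as reported. They were 230, 176, 380 and 88 for CHIR99021 minus light (5 as reported), 12, 7, 4 and 2 for CHIR99021 minus Wnt3a (0), 12, 5, 1 and 8 for 1 d OFF minus 1 d ON (0), and 37, 15, 36 and 1 for 2 d OFF minus 3 d ON (0), which called 1 on day 3 Wnt3a and light alone. Leaving out 1 library gave 0 to 2140, 0 to 103, 0 to 3, 0 to 0 and 0 to 32 calls in that order of comparisons; each highest count above 0 came without light 1 d ON 2 d OFF. The causes were not tested.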

Other observations

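The 2 genotypes differed in either direction over the members. The median over members of optoWnt minus wild-type was -0.06 at 0 d, 0.02 at 3 d and -0.08 at 5 d in L, against 0.14, -0.07 and 0.07 over comparable genes. At 0 d 6 members differed by at least 1 between genotypes, at 3 d 4 and at 5 d 12, as did 16.4%, 8.24% and 25.3% of comparable genes. The wild-type libraries of 0 and 5 d are among the 6 that stand apart. The rule compares means at 5 and 0 d only, and 13 members had at least 1 library of 0 d that lay 1 or more from their baseline mean of 3 and 5 d.

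The members with the most alike levels outside sustained CHIR99021 were ENSRNOG00000053972 and ENSRNOG00000057493, a pair named after its values were seen. Pearson's r of L was 0.96 over 18 libraries, and the 2 never differed by more than 0.46 in any of 20. Whether they share reads was not tested.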
